A study of Mus musculus with 4 samples.

Results

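AMPA receptors are the ion channels that carry most fast excitatory transmission in the brain, and each is assembled from GluA subunits encoded by Gria1, Gria2, Gria3 and Gria4. The GluA2 subunit, after RNA editing, makes the channel nearly impermeable to calcium. Subunits are moved in and out of the synapse during plasticity, which has been studied widely in the dentate gyrus, where granule cells receive the perforant path. Delta receptors, such as the one encoded by Grid1, are related in sequence but act mainly as synaptic organisers that bind cerebellins and, through them, presynaptic neurexins.

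The receptor genes described here are Gria1, Gria2, Gria3, Gria4 and Grid1, which are 5 of the 8251 genes named by 1 symbol on the array. They were taken by gene symbol, with every one of their 9 probe sets (a probe set is the group of oligonucleotides that reports 1 transcript). The RNA came from the dentate gyrus of young male C57BL/6J mice that were handled by the experimenter and otherwise left untreated. There were 4 samples of 1 array each, with RNA taken 1, 2, 4 or 6 h after other mice of the experiment had received their last shock; all 4 samples are unshocked controls. How many mice went into each sample is not stated. The 4 samples were treated as 1 group, and nothing states that they came from separate animals, so an error over them holds the hour, the array and any technical spread together.

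Values are array intensities as deposited, given throughout in the order 1, 2, 4 and 6 h. The median intensity over all probe sets was 186, 187, 213 and 185, and the 99th percentile was 10731, 10679, 10170 and 10509. Leaving out the top and bottom 2% of probe sets, the mean was 500.3 on each array, which points to a scaling of each array to 1 target. These similar values therefore do not show that the arrays were alike in brightness before scaling. Of 12 granule cell markers, 7 had a probe set and all 7 were above the intensity filter used for testing. This filter was a mean log2 of at least 7.41, or 170.4 in intensity, with values under 38.3 raised to it. Of all 8251 genes, 4951 were above the filter. Among markers with a probe set, so were 7 of 7 for astrocytes, 7 of 8 for microglia and 3 of 7 for endothelial cells. The count therefore does not set granule cells apart. The granule cell markers included the transcription factor Prox1 (184, 154, 182 and 249), close to the filter at a mean log2 of 7.56. They also included the calcium-binding protein Calb1 (2542, 3026, 2506 and 2453). The number of arrays limits the precision, and levels are not compared between probe sets, since each has its own response.

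Gria1, which encodes GluA1, had its main probe set 92943_at at 6708, 3195, 3780 and 6383. The arrays at 1 and 6 h were high and those at 2 and 4 h were low, with a gap between the pairs. The mean was 5016 ± 1786 (SD, n = 4), and the 1 h value was 2.10-fold that at 2 h. The other Gria1 probe set, 92944_at, covered a narrower range, at 776, 601, 672 and 574. It was also highest at 1 h, but its lowest value was at 6 h, where the main probe set was high. Its 1 h value was 1.29-fold that at 2 h, so the probe sets of Gria1 disagreed on the 6 h sample.

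Gria2, which encodes GluA2, had 4 probe sets. The main one, 92947_s_at, read 12833, 7718, 8992 and 10505, with a mean of 10012 ± 2199 (SD, n = 4). Its value was highest at 1 h and lowest at 2 h, a 1.66-fold span. Probe set 92945_at read 1724, 935, 560 and 1248, and its span of 3.08-fold ended at 4 h and not at 2 h. Probe set 92946_f_at read 803, 391, 713 and 691, with the 2 h array low and the other arrays close together. Thus the 3 probe sets of Gria2 above the filter were highest at 1 h and lower at 2 h by 1.66-fold to 2.05-fold, but they differed at 4 h. The fourth, 162076_r_at, read 1.3, 15.5, 2.1 and 3.6, which is under the intensity floor of 38.3 on every array and shows no course.

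Gria3, which encodes GluA3, had 1 probe set (97793_at) at 479, 128, 187 and 330. The values were again high at 1 and 6 h and low at 2 and 4 h, with a mean of 281 ± 157 (SD, n = 4). The 1 h value was 3.74-fold that at 2 h, the widest difference between these hours among the 4 receptor genes above the filter. A span as wide as that of Gria3 or wider was found in 106 of the 4951 tested genes (2.14%). Gria3 was dim, with a mean log2 of 7.96 beside a filter of 7.41, and no share was taken among genes of like intensity.

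Gria4, which encodes GluA4, a subunit best known from interneurons and early development, had 1 probe set (101710_at) at 122.7, 9.0, 110.3 and 9.3. The readings at 2 and 6 h were under the floor, and those at 1 and 4 h were above it. Against that floor, the values at 1 and 4 h were at least 3.20-fold and 2.88-fold higher than those at 2 and 6 h. Its mean was under the filter, so Gria4 was not tested. By the probe set used for each gene, Gria4 was the 1 of 5 that was higher at 4 h than at 6 h, and no other probe set was there to compare with it.

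Grid1, which encodes the delta receptor subunit GluD1, had 1 probe set (94619_at) at 530, 210, 115 and 343. Its lowest value was at 4 h, where the Gria genes above the filter were not at their lowest by their main probe sets. The span was 4.62-fold, and 64 of 4951 genes (1.29%) had a span as wide or wider. Its mean log2 of 8.01 was also low, and no share was taken among genes of like intensity. The mean was 300 ± 180 (SD, n = 4).

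**Figure D1:**
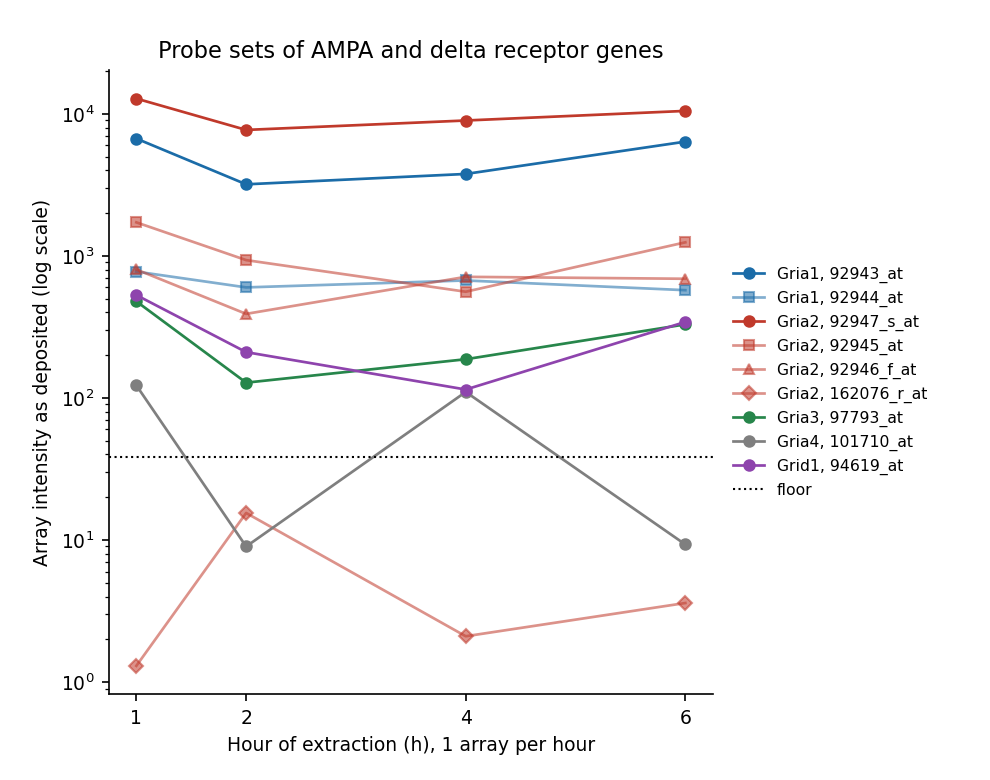
Array intensity (log axis) of the 9 probe sets of the receptor genes against the hour of extraction, with 1 point per array; full colour marks the probe set used for the gene and the dotted line the floor of 38.3. The 7 probe sets above the filter all have their highest point at 1 h, while those of Gria4 and the faint Gria2 set cross or lie under the floor.

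No receptor gene passed a test for a linear trend with the hour. With limma and Benjamini-Hochberg adjustment over 4951 genes, 0 of the 4 tested receptor genes were called at 0.05 (unadjusted p from 0.46 to 0.96). The background was 0% of all tested genes, of which 100 were under 0.05 before adjustment. The slopes were 0.035 ± 0.085 log2 per h for Gria1, −0.018 ± 0.063 for Gria2, −0.0081 ± 0.15 for Gria3 and −0.12 ± 0.15 for Grid1 (SE, n = 4). The adjusted p by limma was 0.99993 for each of them. The values of these genes were high at the first and last hour, which a line does not describe, and with no replicate at any hour a difference between hours was not tested.

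The 1 h array was the highest of the 4 for all 4 tested receptor genes, against 23.1% of the tested genes. Counted by probe set, 7 of 7 receptor probe sets above the filter were highest at 1 h, against 23% of 6500 probe sets fitted as rows of their own. For probe sets as rows the filter was a mean log2 of 6.91, and for genes it was 7.41. Of these 7, 5 report either Gria1 or Gria2, and probe sets of the same gene are not separate evidence. At 1 array per hour the counts describe these arrays and carry no test.

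The difference between the 2 h and 1 h arrays was −1.07 log2 for Gria1, −0.73 for Gria2, −1.90 for Gria3 and −1.33 for Grid1. All 4 were over 1.5-fold lower at 2 h, against 7.88% of the tested genes (390 of 4951). Among the 1238 brightest of them, with a mean intensity of 1225 or more, the share was 4.12%, and Gria1 and Gria2 belong to this brighter set. By probe set, 6 of 7 were over 1.5-fold lower at 2 h, against 9.83% of the 6500 probe sets. The exception was the second probe set of Gria1, at −0.37 log2. Over all tested genes the median difference was 0.0059 log2 with an SD across genes of 0.47. Among the 1238 brightest the SD was 0.34. A difference as low as that of Gria1 or lower was found in 65 genes (1.31%), of Gria2 in 227 (4.58%), of Gria3 in 14 (0.283%) and of Grid1 in 31 (0.626%). These shares are of all tested genes, and none was taken among genes as dim as Gria3 and Grid1.

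**Figure D2:**
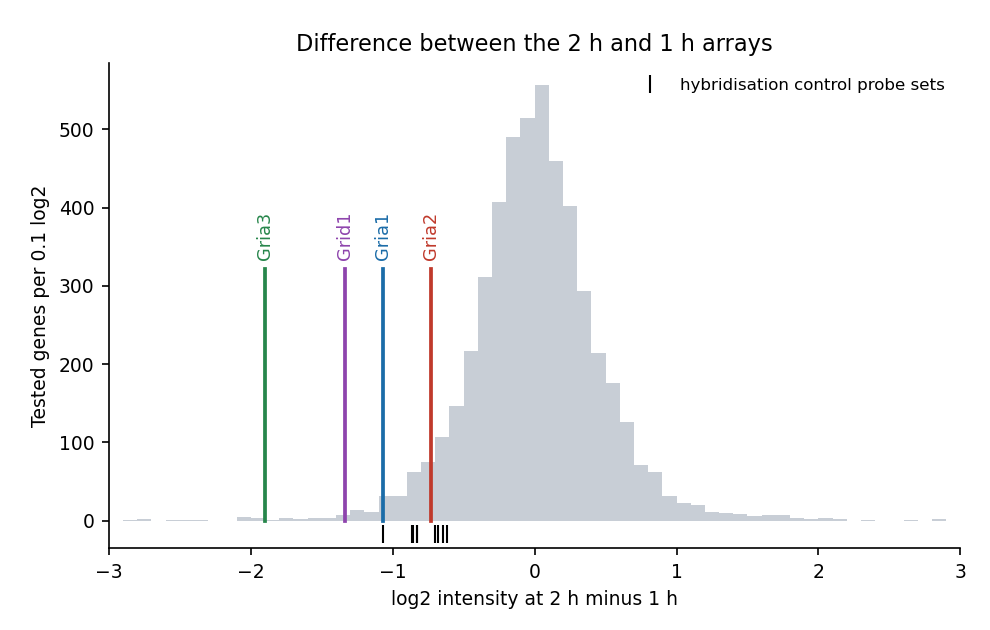
Histogram of the log2 intensity at 2 h minus that at 1 h for the 4951 tested genes, with vertical lines for the 4 tested receptor genes and ticks under the axis for 9 hybridisation control probe sets. Gria3, Grid1 and Gria1 lie at −1.90, −1.33 and −1.07 in the lower tail, and Gria2 at −0.73 nearer the bulk; the controls lie between −1.07 and −0.62.

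By the probe set used for each gene, an order of the hours was shared by 3 of the 4 tested genes. Gria1, Gria2 and Gria3 all ran 1, 6, 4 and 2 h from high to low, an order found in 3.9% of the tested genes, and Grid1 ran 1, 6, 2 and 4 h. The other probe sets above the filter did not share this order. For Gria1, 92944_at ran 1, 4, 2 and 6 h. For Gria2, 92946_f_at ran 1, 4, 6 and 2 h, and 92945_at ran 1, 6, 2 and 4 h, as Grid1 did. A span over 2-fold was seen in 3 of the 4 tested genes, against 15% of tested genes. Gria2 was the exception by its main probe set. Each gene's log2 values were then centred on its own mean, and profiles were compared by the root mean square (RMS) difference over the 4 arrays. Among the tested receptor genes, Gria1 and Gria2 were the closest pair, at 0.23 log2, followed by Gria1 and Gria3 at 0.30. The likest of all tested genes lay nearer, at 0.061 from Gria1 and 0.022 from Gria2. Grid1 lay 0.51 to 0.64 from the Gria genes, mostly through the 4 h array, where it was 1.04 lower than Gria2 on the centred scale. Between Gria1 and Gria2 the centred difference ran from −0.23 at 2 h to 0.33 at 6 h, from 1 array each and with no test.

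Control probe sets on the same arrays followed a similar course, and their part in the result was not tested. The hybridisation controls BioB, BioC, BioDn and CreX are bacterial and phage transcripts that are added in known amounts when the labelled RNA is put on an array. All 9 of their probe sets were lowest at 2 h and 8 of 9 were highest at 1 h. The order of hours of the main probe sets of Gria1, Gria2 and Gria3 was found in 6 of 9. The middle BioB probe set read 3580, 1706, 1915 and 3188. The controls were 1.53-fold to 2.10-fold higher at 1 h than at 2 h, with a mean difference of −0.79 log2 at 2 h, −0.38 at 4 h and −0.14 at 6 h against 1 h. The values of Gria1 and Gria2 at 2 h lay within the range of the controls or at its edge, while Gria3 and Grid1 lay beyond it.

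Set against the mean of these controls, the difference between 2 h and 1 h was −0.28 log2 for Gria1, 0.054 for Gria2, −1.11 for Gria3 and −0.55 for Grid1. On that scale the median of all tested genes was itself 0.79 higher at 2 h than at 1 h, so relative to the other genes the receptor genes stood as low as before. With this scaling, which was chosen after the data were seen, 1 of 4 receptor genes was over 1.5-fold lower at 2 h, against 0.525% of all tested genes (26 of 4951), since the scaling moves every gene alike.

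A sign of RNA quality also moved with the hours. Probe sets at the 3' and 5' ends of the Gapdh transcript gave a 3' to 5' ratio of 3.75, 6.33, 5.36 and 3.89. A higher ratio is a usual sign of shorter or less complete labelled transcripts. The ratio was thus high on the arrays at 2 and 4 h, where Gria1, Gria2 and Gria3 were low. The ratio for Actb ran from 2.48 to 3.03 and was highest at 1 h (3.03, 2.48, 2.59 and 2.54), the opposite side. The part of RNA quality in the receptor values was not tested.

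**Figure D3:**
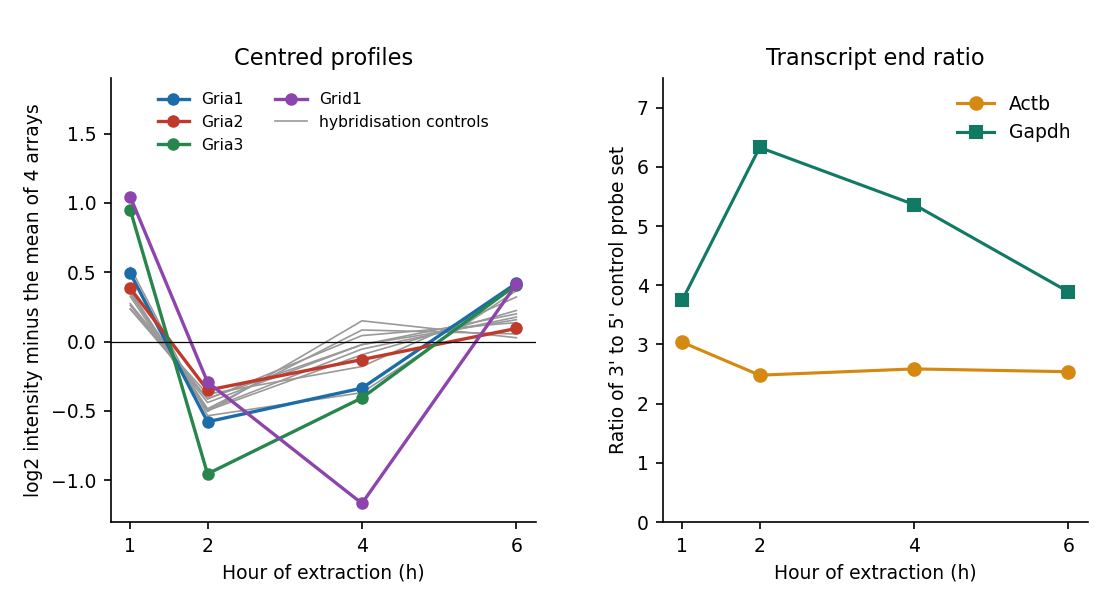
Left, log2 intensity minus the mean of the 4 arrays for the 4 tested receptor genes (coloured) and the 9 hybridisation control probe sets (grey) against the hour of extraction; right, ratio of the 3' to the 5' control probe set of Actb and Gapdh. Gria1, Gria2 and Gria3 dip at 2 h with the controls, Grid1 is lowest at 4 h, and the Gapdh ratio peaks at 6.33 at 2 h.

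Genes with the most similar profiles were sought among all tested genes by the same RMS difference. For Gria1 they were Gnl2 (0.061 log2), the probe set annotated to Mir686 (0.073), Txnl1 (0.080) and Lias (0.085). Gnl2 read 402, 212, 246 and 388. For Gria2 they were Jpt1 (0.022), Gatad2a (0.027), Ap2a1 (0.033), a subunit of the clathrin adaptor that takes receptors from the membrane, and Socs2 (0.033). Jpt1 read 1799, 1099, 1315 and 1491. Other probe sets of Gatad2a, at 262, 182, 230 and 140 and at 201, 299, 230 and 198, did not have its course. The likest to Gria3 was the complexin gene Cplx2 (0.13), a regulator of vesicle release, at 2703, 638, 1044 and 2128, and then Pde1a (0.20), Clcn1 (0.23) and Pts (0.25). A second Pde1a probe set, at 229, 105, 81.2 and 94.7, was highest at 1 h but not high at 6 h. A second Clcn1 probe set, under the filter at 14.5, 59.2, 77.4 and 25.3, was lowest at 1 h. For Grid1 they were the Golgi calcium pump gene Atp2c1 (0.21), neurogranin (Nrgn, 0.26), a postsynaptic calmodulin-binding protein, Junb (0.26) and Ginm1 (0.26). Nrgn read 7614, 3093, 2518 and 6526, with both middle hours low and the 4 h array lowest, as for Grid1. Likeness over 4 arrays is a description, and the wider distances for Gria3 and Grid1 go with their wider spans.

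Other glutamate receptor genes gave few values above the filter. Of 7 NMDA receptor subunits 4 had a probe set and 1 was tested, Grin2c, at 512, 827, 840 and 669. It was lowest at 1 h, where the tested AMPA subunits were highest, and 0.69 log2 higher at 2 h than at 1 h. The other NMDA subunits with a probe set were under the filter and were named after their values were seen. Of these, Grin2a read 60.9, 35.7, 39.7 and 142.5, lowest at 2 h. Grin2b read 27.8, 55.7, 153.5 and 102.5, and Grin2d read 105.5, 117.1, 125.5 and 104.3. Of 5 kainate receptor subunits 3 had a probe set and 1 was tested, Grik5, at 604, 491, 854 and 560, with its highest value at 4 h. A second Grik5 probe set read 453, 358, 407 and 225, and was highest at 1 h and lowest at 6 h. The kainate subunits Grik2 (119, 131, 31.7 and 122) and Grik1 (8.6, 92.2, 98 and 45.1) were under the filter. The metabotropic receptor Grm8, the 1 of 7 with a probe set, was also under it, at 93.4, 116, 156 and 135. No gene of these lists passed the trend test, and neither did any of the other lists below, with limma.

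Few genes whose proteins join or assemble AMPA receptors could be measured. Of 20 such genes 3 had a probe set, and these 3 were tested, highest at 1 h, lowest at 2 h and over 1.5-fold lower at 2 h than at 1 h. Of all tested genes, 23.1% were highest at 1 h and 7.88% were over 1.5-fold lower at 2 h. The share of all tested genes that were lowest at 2 h is not given here. The cornichon gene Cnih2, an auxiliary subunit that slows channel closing, read 4427, 2651, 4089 and 3911. Cacng2, which encodes stargazin, the auxiliary subunit that brings AMPA receptors to the synapse, read 960, 638, 759 and 952. Olfm1, a secreted protein found in native AMPA receptor complexes, read 16385, 9845, 13153 and 13417. The differences between 2 h and 1 h were −0.74, −0.59 and −0.73 log2, against −0.62 to −1.07 for the hybridisation controls. With 3 genes, the median of −0.73 stands beside 0.0059 for all tested genes and is not shown to be particular to the list.

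Trafficking and scaffold genes lay on both sides of 0. Of 40 listed, 21 had a probe set and 19 were tested; 12 were lower at 2 h than at 1 h, beside 2451 of all 4951 tested genes. By over 1.5-fold, 2 of the 19 were lower, near the 7.88% of all tested genes, and 2 were higher. Nsf, the fusion ATPase that binds GluA2 and helps hold it at the synapse, read 11894, 5771, 7197 and 9503. It had the same order of hours as the main Gria2 probe set and was 1.04 log2 lower at 2 h than at 1 h. Dlg4, which encodes the postsynaptic scaffold PSD-95, was by contrast highest at 2 h, at 680, 1150, 611 and 561; it was named after its values were seen. Pick1, which binds the GluA2 tail and promotes its internalisation, read 221, 289, 59.0 and 331, but its other probe set read 144, 131, 233 and 270 and was not low at 4 h. The clathrin adaptor gene Ap2m1 read 5888, 5484, 5916 and 4742, a 1.25-fold span, while its other probe set read 280, 415, 406 and 421 and was lowest at 1 h.

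Among kinases and phosphatases that act on AMPA subunits, 15 of 20 had a probe set and 13 were tested. At 2 h 9 were lower than at 1 h, beside 2451 of all 4951 tested genes. By over 1.5-fold, 4 of the 13 were lower, beside 7.88% of all tested genes, and 0 were higher. The list's median difference was −0.25 log2. Calcineurin is the phosphatase that favours removal of AMPA receptors. Its catalytic subunits in the list, Ppp3ca and Ppp3cb, were both highest at 1 h. Ppp3ca read 15470, 9066, 8880 and 10114. Ppp3cb read 1134, 562, 591 and 681, in the order of hours of the main probe sets of Gria1, Gria2 and Gria3. The regulatory subunit Ppp3r1 did not share this, at 11939, 13141, 12292 and 7969 with its lowest value at 6 h. The kinase gene Camk2b, whose enzyme phosphorylates GluA1, read 13283, 11472, 11284 and 13783, a 1.22-fold span.

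Adarb1, the enzyme that edits the GluA2 transcript, read 1489, 1750, 1336 and 1993, with a second probe set at 1023, 1049, 947 and 1155. Both were highest at 6 h and neither was low at 2 h. The related editing gene Adar was under the filter, at 180, 90.1, 280 and 96.0, and its other probe set read 111, 35.6, 76.4 and 59.0. Cbln1, a cerebellin that binds delta receptors, was the 1 of 8 partners with a probe set and read 372, 261, 311 and 207. It was highest at 1 h, as Grid1 was, but lowest at 6 h and not at 4 h.

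**Figure D4:**
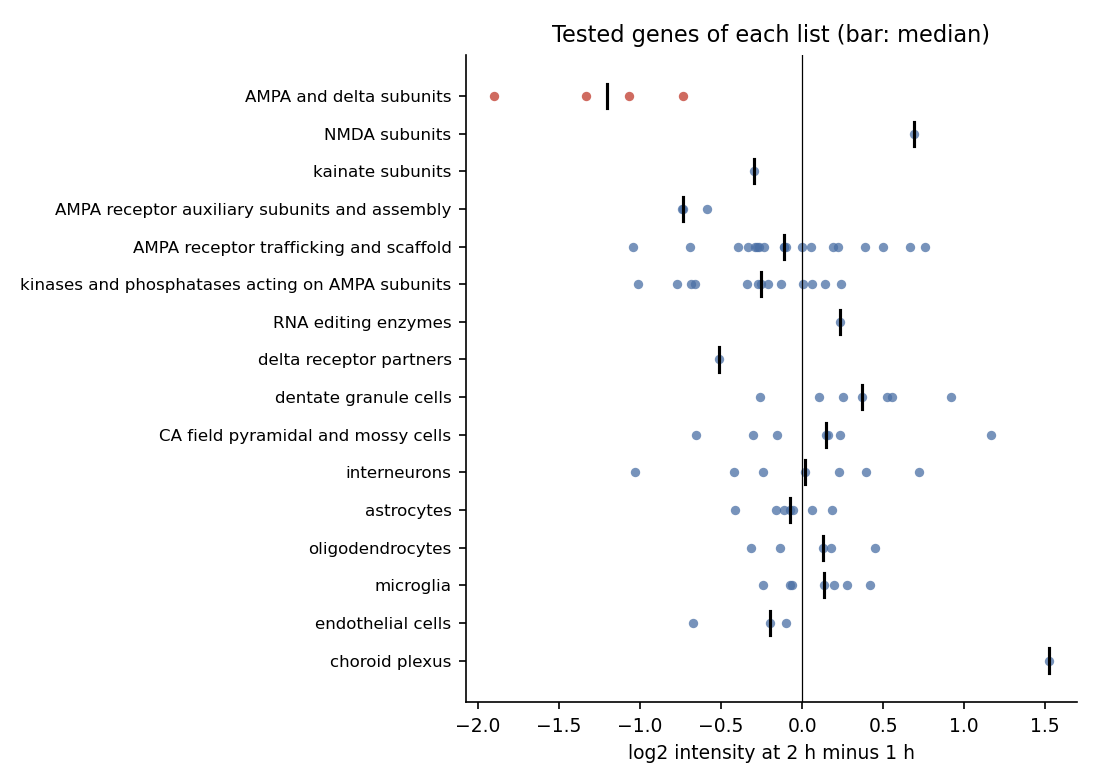
Log2 intensity at 2 h minus that at 1 h for the tested genes of each list (1 point per gene, bar at the median), with the AMPA and delta subunits in red. The receptor genes lie between −1.90 and −0.73 and the auxiliary subunits between −0.74 and −0.59, while granule cell markers have a median of 0.37.

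Most granule cell markers were not low at 2 h. The summed intensity of the 7 tested markers was 6043, 7724, 6394 and 6803, highest at 2 h. Calb1, the brightest of them, weighs most in this sum. Prox1 was the 1 of 7 that was lower at 2 h than at 1 h, and its lowest value was at 2 h (184, 154, 182 and 249). In tissue RNA, fewer cells of a type and less RNA per cell cannot be told apart. The summed intensity over 4 arrays ran from 7942 to 9658 for 7 of 12 markers of CA field pyramidal cells, which neighbour the dentate gyrus, and of mossy cells, which lie in its hilus, from 13507 to 16329 for 7 of 9 interneuron markers and from 23116 to 25338 for 7 of 8 astrocyte markers. It ran from 10483 to 11852 for 5 of 7 oligodendrocyte markers, from 7590 to 8537 for 7 of 9 microglia markers and from 1426 to 2047 for 3 of 7 endothelial markers. None of these lists was highest at 1 h and lowest at 2 h in its sum, in which the brightest genes weigh most. Counted by gene, 5 of 7 astrocyte and 3 of 3 endothelial markers were lower at 2 h than at 1 h. The count was 3 of 7 for the CA field and mossy cell list, for interneurons and for microglia. It was 2 of 5 for oligodendrocytes, beside 2451 of all 4951 tested genes. One choroid plexus marker of 8 was tested, Ttr, which read 81.3, 234, 2408 and 191; its high value was on the 4 h array, where Grid1 was lowest, and its part in that value was not tested.

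Promoter windows from RefSeq (GRCm38.p6) were used for 2 of the 5 genes, Gria2 and Gria4, those matched in the table of windows used here, and are shown to give the sequence before a start of each gene. Each line holds the 250 bases before an annotated start, with CG pairs, the sites of DNA methylation, in capitals. Gria2 lies on the minus strand at chr3:80802836-80803085, and Gria4 on the minus strand at chr9:4796235-4796484.
Gria2: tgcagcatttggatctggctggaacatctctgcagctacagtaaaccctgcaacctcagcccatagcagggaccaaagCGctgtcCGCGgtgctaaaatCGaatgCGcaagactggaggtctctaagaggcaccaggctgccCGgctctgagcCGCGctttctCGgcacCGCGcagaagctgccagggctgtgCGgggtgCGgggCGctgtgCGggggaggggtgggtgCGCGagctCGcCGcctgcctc
Gria4: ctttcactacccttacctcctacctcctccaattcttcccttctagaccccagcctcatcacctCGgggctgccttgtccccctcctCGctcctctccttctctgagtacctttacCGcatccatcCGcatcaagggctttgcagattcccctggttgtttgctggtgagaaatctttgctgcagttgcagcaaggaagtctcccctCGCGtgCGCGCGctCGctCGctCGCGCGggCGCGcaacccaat
The window of Gria2 held 19 CG pairs and 64.8% G and C, and that of Gria4 held 16 CG pairs and 58.8%. The medians over 32851 promoter windows of the same length were 6 CG pairs and 52.4%, and 19.7% of windows had as many CG pairs as Gria2 or more. Neither window held the motif GGGCGG of Sp1 (found in 32.7% of windows on either strand), TGACGTCA, the full cAMP response element (1.55%), or its shorter form TGACG (17.8%), which lies within the full one. No match says only that these letters are not in these windows, and the arrays did not measure the promoters.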

How the data were processed

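The deposited table holds 1 linear array intensity per probe set and sample, but no label or header says how the authors made these intensities (not given in the sources used here). Leaving out the top and bottom 2% of probe sets, the mean was 500.3 on each array, which points to a scaling of each array to 1 target. Intensities were used as deposited. Probe sets with 1 gene symbol were kept (10833 of 12488; 66 controls, 1193 without and 396 with several symbols were left out). Values under the 20th percentile (38.3) were raised to it before log2. Per gene the probe set with the highest mean was used, and genes with a mean log2 of at least 7.41 (the 40th percentile) were tested, 4951 in all. A linear trend on the hour was estimated in R 4.3.3 with limma 3.58.1 (lmFit, eBayes with an intensity trend; 2 residual degrees of freedom, a median of 10.4 prior degrees of freedom), two-sided and Benjamini-Hochberg adjusted at 0.05, and the script was tested on simulated data. Differences between single hours carry no test.

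The members and lists were chosen with earlier results of these data known. Every receptor probe set is given. The rule named the 4 genes likest each tested member and, per list, the 2 with the widest span and the 2 with the highest mean, or all genes where 3 or fewer had a probe set. Alternatives were other floors, scalings, filters, probe set rules and variance models, and leaving out each sample. The promoter windows come from RefSeq GRCm38.p6. That table was matched by symbol.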

Additional observations from a re-analysis of the deposited data

Results flagged for a closer look

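In 1 of 42 probe sets of the receptor genes and the other named genes, 1 array lay far from the other 3. This was the kainate receptor gene Grik2, whose probe set 98864_s_at read 119, 131, 31.7 and 122. Its 4 h value was under the floor of 38.3, and the gap to the next value was 0.926 of the whole log2 range with the floor applied. A second Grik2 probe set read 21.5, 22.9, 127 and 56.0, with its highest value on the array where the first was lowest. Chance flags about 1 in 20 groups of samples, and no receptor probe set of Gria1, Gria2, Gria3, Gria4 or Grid1 was among them.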

How the results depend on the processing

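The count of called genes was 0 in every setting with all 4 samples and ran from 0 to 13 with 1 sample left out; no receptor gene was called in any setting. The uncalled slopes changed sign with the samples: left-out values ran from −0.22 to 0.25 log2 per h for Gria1, −0.13 to 0.11 for Gria2, −0.35 to 0.34 for Gria3 and −0.69 to 0.18 for Grid1. Averaging the Gria1 probe sets gave a slope of −0.013. With every probe set as a row, 5 of 7 receptor rows spanned over 2-fold, beside 1406 of 6500 probe sets. Of the 4 tested receptor genes, 3 spanned over 2-fold in the main setting. The count fell to 2 with the mean of all probe sets, and to 2 with scaling to the hybridisation controls. It was also 2 without the 1 h or the 2 h sample, and 3 without the 4 h or the 6 h sample. All tested genes spanning over 2-fold numbered 741 of 4951 in the main setting. They numbered 2652 of 8251 with no filter on low means, and 2172 of 4951 with scaling to the hybridisation controls (chosen after the data were seen). With 1 sample left out they numbered 367 to 517 (367 without the 4 h sample). Scaling to the controls moves the median of all tested genes at 2 h against 1 h to 0.79 log2; 1 receptor gene and 0.525% of all tested genes were then over 1.5-fold lower at 2 h, and the Gria2 difference was 0.054 log2. Under array median scaling and quantile normalisation all 4 stayed lower at 2 h by over 1.5-fold. No paired analysis was possible because the 4 samples form 1 group. No array has a detection call here, so signal over background is judged by the floor alone.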
